A study of Mus musculus with 43 samples.

Results

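Collagen chain genes encode the chains of the triple-helical proteins that make up much of the matrix around and between cells. All gene rows named Col, a number, the letter a and a number were taken, which gave 44 genes of 23154 in the stage tables and the same 44 of 24414 in the sorted tables. The rule uses gene names only. The genes were described in single cells of the early mouse yolk sac, by embryonic stage, and in sorted cells.

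The study profiled single cells labelled as endothelial by a modified STRT protocol, in which an oligo-dT primer carries a cell barcode and the ends of cDNAs are counted per gene. The stage series held 478 cells in 40 yolk sac libraries, with 2 libraries at embryonic day (E) 8.0, 10 at E8.5, 9 at E9.0, 10 at E9.5 and 9 at E10.0. A second series held 3 sorted samples of 1 library each. They were 44 Gja5+Cd44+ CR cells, 50 Gja5+Cd44+ YS cells and 36 Gja5-Cd44+ YS cells, where YS is read as yolk sac and CR is not spelled out in the labels. Gja5 encodes an arterial connexin and Cd44 a hyaluronan receptor. Stage is the only condition the labels give for the 40 libraries, and no stage is given for the sorted samples. The labels name no strain, reporter allele or treatment and do not say whether embryos were pooled. Nothing states that libraries of a stage came from separate embryos, so p-values measure the spread between libraries, which may be technical. Library numbers are nested in stage, so batch and stage cannot be told apart.

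Type IV collagen chains form the sheet-like network of basement membranes, on which endothelial cells sit, and the multiplexins Col15a1 and Col18a1 lie in or beside that network. Fibrillar collagens such as types I, III and V are made chiefly by mesenchymal cells, and fibril-associated collagens such as type XIV bind to the fibril surface. Types XIII, XVII and XXIII span the plasma membrane of the cell that makes them.

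The RefSeq table of promoter windows held 35 of the 44 genes, in 38 windows of 300 bases that run from 250 bases before a start to 50 bases after it, in build GRCm38.p6. Col4a1 and Col4a2 are shown because their levels moved together below, and Col15a1 and Col13a1 because differences between stages and between sorted samples turn on them. Each is written 5′ to 3′ on its own strand, at chr8:11312777-11313076 on the minus strand for Col4a1, chr8:11312555-11312854 on the plus strand for Col4a2, chr4:47207762-47208061 on the plus strand for Col15a1 and chr10:61979059-61979358 on the minus strand for Col13a1.
Col4a1: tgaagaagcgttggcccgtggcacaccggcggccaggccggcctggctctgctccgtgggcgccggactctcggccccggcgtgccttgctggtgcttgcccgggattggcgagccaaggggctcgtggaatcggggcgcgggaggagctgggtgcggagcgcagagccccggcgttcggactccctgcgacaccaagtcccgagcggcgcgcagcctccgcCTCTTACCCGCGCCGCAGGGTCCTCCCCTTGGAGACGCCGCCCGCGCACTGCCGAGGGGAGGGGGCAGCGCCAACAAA
Col4a2: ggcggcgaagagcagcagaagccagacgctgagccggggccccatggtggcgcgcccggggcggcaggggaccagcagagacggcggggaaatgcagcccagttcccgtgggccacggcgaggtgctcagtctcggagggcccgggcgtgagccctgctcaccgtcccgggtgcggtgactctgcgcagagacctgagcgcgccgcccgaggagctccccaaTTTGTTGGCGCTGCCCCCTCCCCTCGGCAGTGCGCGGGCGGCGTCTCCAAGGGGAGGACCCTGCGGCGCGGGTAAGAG
Col15a1: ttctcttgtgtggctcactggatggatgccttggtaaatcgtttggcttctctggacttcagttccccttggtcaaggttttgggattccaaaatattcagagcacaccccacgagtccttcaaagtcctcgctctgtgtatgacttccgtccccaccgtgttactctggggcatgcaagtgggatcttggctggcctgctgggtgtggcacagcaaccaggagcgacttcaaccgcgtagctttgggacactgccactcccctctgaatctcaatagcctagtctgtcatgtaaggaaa
Col13a1: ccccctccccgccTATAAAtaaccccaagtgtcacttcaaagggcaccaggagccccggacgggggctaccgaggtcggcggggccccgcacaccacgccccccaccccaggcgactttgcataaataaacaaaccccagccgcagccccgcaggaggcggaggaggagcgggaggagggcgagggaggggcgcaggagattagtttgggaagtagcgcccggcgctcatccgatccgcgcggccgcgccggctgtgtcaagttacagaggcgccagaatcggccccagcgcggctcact
Capitals in the Col4a1 and Col4a2 lines mark the 78 bases, chr8:11312777-11312854, that both windows share on opposite strands; the start sites lie 21 bases apart, at 11312826 and 11312805. In the Col13a1 line capitals mark the motif TATAAA. GC content was 74.0% for Col4a1, 73.7% for Col4a2, 52.3% for Col15a1 and 68.0% for Col13a1, against a median of 52.7% over all 32841 windows. On either strand, GGGCGG was present in 23 of the 38 collagen windows (60.5%) and in 35.7% of all windows, CCAAT in 34.2% and 37.4%, TATAAA in 13.2% and 13.6%, and CACCC in 76.3% and 57.5%. Col4a1 held GGGCGG at 1 place and Col4a2 at 3, and Col15a1 and Col13a1 held none. A match describes these letters in these windows only.

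Cells were divided by genes other than collagens. A cell with at least 2 of 9 blood genes at 20 CPM or more (CPM, counts per 1000000 counts of the cell or library) was called a blood-marker cell, and any other cell with Cdh5, which encodes the endothelial VE-cadherin, at 20 CPM or more was called Cdh5-expressing. Every stage cell fell into one of these classes, with 34 Cdh5-expressing and 23 blood-marker cells at E8.0, 82 and 50 at E8.5, 61 and 36 at E9.0, 55 and 55 at E9.5, and 80 and 2 at E10.0. A blood-marker cell could also hold Cdh5. With or without blood genes, 51, 103, 73, 63 and 81 cells from E8.0 to E10.0 had Cdh5 at 20 CPM or more. Counts were summed per library and class, and libraries with 3 or more cells of a class were kept, which left 2, 6, 5, 3 and 9 libraries of Cdh5-expressing cells from E8.0 to E10.0 and 2, 10, 4 and 9 of blood-marker cells from E8.0 to E9.5. Library totals ran from 2172087 to 42245455 counts. All 10 pan-endothelial genes of a fixed marker list, with Cdh5 of the gate among them, were detected in the Cdh5-expressing cells of every stage. All 10 were also detected in the blood-marker cells from E8.0 to E9.5, so detection does not set the classes apart. At E8.0, column names divide the cells by a mark written 41neg or 41posi, and 32 of the 34 Cdh5-expressing cells carried the first and 16 of the 23 blood-marker cells the second.

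Of the 44 genes, 4 had no count in any cell (Col6a4, Col6a5, Col8a1 and Col28a1), and 22 are described by name because they were called in a comparison or reached 10 CPM in a stage or sorted sample. The other 22 stayed low: the highest mean of any stage and class among them was 7.51 CPM, for Col4a6 in Cdh5-expressing cells at E9.0, and the highest level in a sorted sample was 7.40 CPM, for Col26a1 in Gja5+Cd44+ CR cells. The summed level of the 44 genes in Cdh5-expressing cells was 1216 ± 233 CPM at E8.0 (SD, n = 2), 1416 ± 397 at E8.5 (n = 6), 2054 ± 570.2 at E9.0 (n = 5), 4417 ± 1210 at E9.5 (n = 3) and 3949 ± 1086 at E10.0 (n = 9). In blood-marker cells the same sum was 613 ± 251 CPM at E8.0 (n = 2), 349 ± 169 at E8.5 (n = 10), 418 ± 282 at E9.0 (n = 4) and 147 ± 113 at E9.5 (n = 9).

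**Figure D1:**
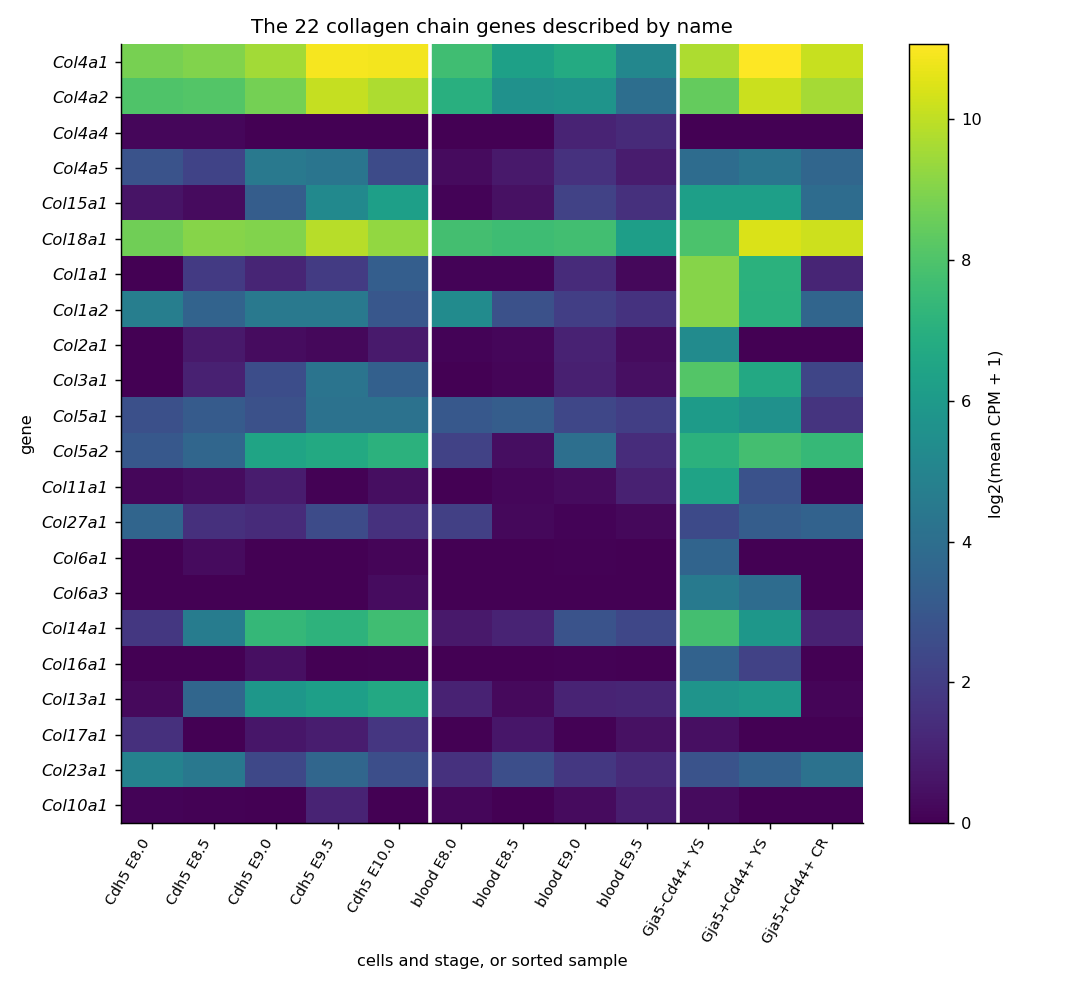
Levels of the 22 collagen chain genes described by name. Rows are genes, columns are classes of cells by stage (mean over libraries) or sorted samples (sum over cells), and the colour gives log2 of the level in CPM plus 1. Col4a1, Col4a2 and Col18a1 are bright in every Cdh5-expressing column, and Col13a1 is dark in the Gja5+Cd44+ CR column alone among the sorted samples.

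In Cdh5-expressing cells, the stage comparison with the most calls was E10.0 against E8.5, where the type IV chains Col4a1 and Col4a2, the multiplexin Col15a1, the fibrillar chain Col5a2, the fibril-associated Col14a1 and the transmembrane Col13a1 rose, Col17a1 was called higher from a stage with no count, and no collagen gene fell. These were 7 of the 23 collagen genes that passed the filter on low counts, by edgeR's quasi-likelihood test with Benjamini-Hochberg adjustment over 12494 genes at an adjusted p under 0.05. The background in that comparison was 12.6% of all tested genes called, 5.96% higher and 6.62% lower. A gene can pass that filter through the stage where it is high, so the count describes those tested and not all 44. The summed level of the 10 pan-endothelial genes also moved: it was between 1483 and 3429 CPM in the 6 libraries at E8.5 and between 4489 and 6532 CPM in the 9 at E10.0, with no overlap. The summed level of 11 mesenchyme genes was 20.5 to 244 CPM in the earlier stage and 6.81 to 86.7 CPM in the later, with all 11 detected at both stages. Myeloid genes, 7 of 8 detected at either stage with Ptprc at 0, summed to 46.6 to 366 CPM at E8.5 and 0.803 to 32.9 CPM at E10.0, with no overlap. Megakaryocyte genes had medians of 189.9 and 85.2 CPM, with ranges of 109.5 to 292 and 7.30 to 229 CPM and with 6 and 5 of 8 detected (Gp5, Treml1 and Ppbp at 0 at E10.0). Erythroid genes summed to 14.9 to 536 and 48.8 to 936 CPM, with 8 and 7 of 8 detected (Gata1 at 0 at E10.0). The part of any of these lists in the collagen result was not tested.

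Among neighbouring stages, 3 of 23 collagen genes rose from E8.5 to E9.0 (Col5a2, Col13a1 and Col15a1) and none fell, where 0.76% of all genes were called, 0.624% higher and 0.136% lower. Of these, Col15a1 was nearly absent at E8.5 and passed the filter on low counts through later stages. From E8.0 to E8.5 edgeR called 0 collagen genes and 0.016% of all genes, with 2 collagen genes at an unadjusted p under 0.05, and DESeq2 called 1 (Col13a1). From E9.0 to E9.5 edgeR called 0 collagen genes and 0% of all genes, with 5 at an unadjusted p under 0.05, and DESeq2 called 2 (Col4a1 and Col4a2). From E9.5 to E10.0 edgeR called 0 collagen genes and 0.048% of all genes (0.032% lower), with 3 at an unadjusted p under 0.05, and DESeq2 called 0. The comparisons share libraries of the stages they have in common. The E9.0 result rests on single libraries: without E9.0 replicate 7 none of the 3 was called, and without E9.0 replicate 8 only Col5a2 was. The Col13a1 call was also lost without E9.0 replicate 9 or E8.5 replicate 1, 3, 5 or 7, with adjusted p from 0.0999 to 0.149 over these leave-outs.

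**Figure D2:**
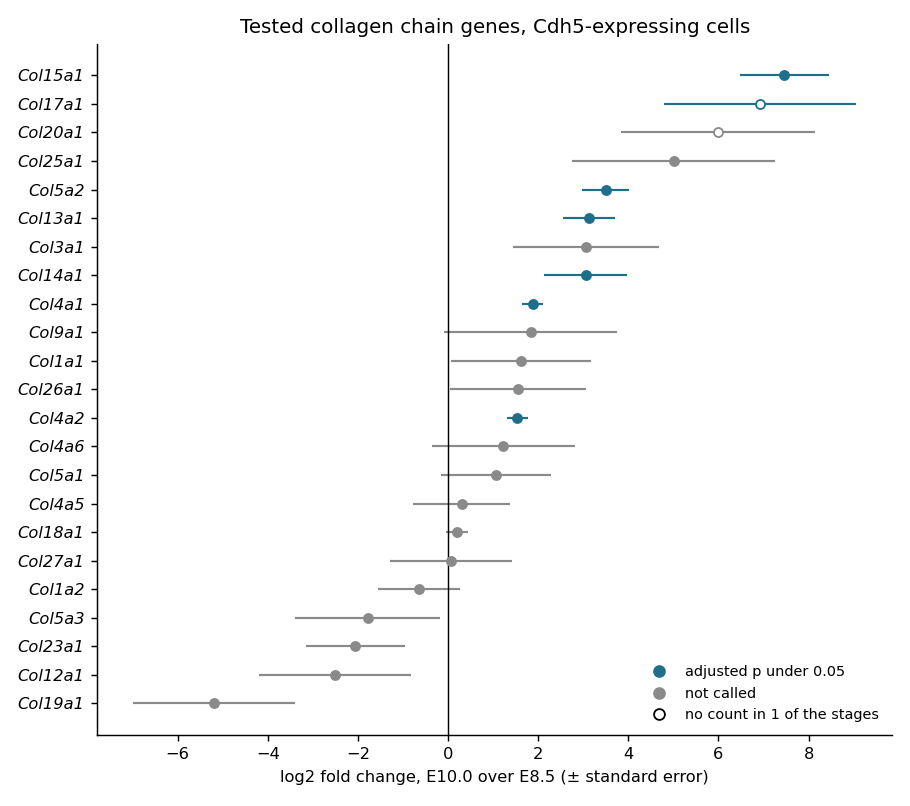
Fitted log2 fold change, E10.0 over E8.5, with its standard error, for the 23 collagen chain genes tested in Cdh5-expressing cells. Blue marks an adjusted p under 0.05, grey marks genes not called, and hollow points had no count in 1 of the stages, so their fitted fold is no measure of size. The 7 called genes all lie to the right of 0, and Col4a1 and Col4a2 have the shortest error bars among them.

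Col4a1 and Col4a2 encode the chains of the most widespread type IV collagen, and the chains assemble with each other before secretion. They lie head to head on chromosome 8, Col4a1 at chr8:11198423-11312826 on the minus strand and Col4a2 at chr8:11312805-11449287 on the plus strand (GENCODE M21, GRCm38), with the shared promoter bases printed above. In Cdh5-expressing cells the level of Col4a1 was 539 and 359.9 CPM in the 2 libraries at E8.0. At E8.5 the 6 libraries had a lowest value of 276 CPM, a median of 523 and a highest of 692. At E9.0 the 5 libraries had 687, 376, 919, 919 and 769 CPM. Of these 5, E9.0 replicates 7, 8 and 9 lay above every library up to E8.5, and replicates 5 and 6 lay inside the E8.5 range. At E9.5 the level was 1238, 2937 and 1605 CPM, and at E10.0 it ran from 999.9 over a median of 1712 to 2943 CPM in 9 libraries. All 12 libraries of E9.5 and E10.0 lay above all 13 of the earlier stages.

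From E8.5 to E10.0 Col4a1 rose from 499.9 ± 159 CPM (SD, n = 6) to 1894 ± 626 (n = 9), a log2 fold change of 1.88 ± 0.23 (SE) with an edgeR adjusted p of 7.85e-07. Col4a2 rose over the same span from 279 ± 99.7 to 838 ± 253 CPM, by 1.54 ± 0.23 on the log2 scale with an edgeR adjusted p of 1.77e-05. The lowest, median and highest Col4a2 libraries were 156, 264 and 406 CPM at E8.5 and 518, 808 and 1321 CPM at E10.0, so the groups did not overlap. Between them Col4a2 was at 384, 246, 406, 711 and 426 CPM in the E9.0 libraries and at 777, 1499 and 966 CPM at E9.5. For the step from E9.0 to E9.5 the log2 change was 1.26 ± 0.29 for Col4a1 and 1.19 ± 0.30 for Col4a2, with edgeR adjusted p of 0.262 and 0.368. In E8.0 libraries Col4a2 was at 309.9 and 207 CPM.

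Every Cdh5-expressing cell at every stage held counts of both genes. Across single cells the Spearman correlation of the levels was 0.704 at E8.0 (n = 34 cells), 0.809 at E8.5 (82), 0.612 at E9.0 (61), 0.765 at E9.5 (55) and 0.625 at E10.0 (80), as a description of cells that share libraries and depth. With the total count of the cell, Col4a1 had correlations between -0.573 and -0.0585. With Col18a1 the correlations of Col4a1 were 0.427, 0.578, 0.297, 0.406 and 0.236 from E8.0 to E10.0.

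The other type IV chains were sparse. Col4a5, a chain of the kidney and eye basement membrane network, had means of 6.13 ± 3.16 CPM at E8.0, 3.61 ± 4.80 at E8.5, 21.1 ± 21.6 at E9.0, 18.5 ± 17.8 at E9.5 and 4.81 ± 5.84 at E10.0 in Cdh5-expressing cells. The E9.0 libraries had 17.4, 3.09, 57.5, 20.7 and 6.92 CPM and overlapped those of every other stage, and no step was called. Col4a4 had a count in 1 Cdh5-expressing cell at E8.0 and 2 at E8.5, and in none later.

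Col18a1 (chr10:77052178-77166548) encodes a proteoglycan collagen of vessel basement membranes whose end fragment is endostatin. Its level in Cdh5-expressing cells was 419.8 and 399 CPM at E8.0. It ran from 356 over a median of 486 to 810.3 CPM at E8.5, and was 567, 373, 398, 652 and 482 CPM at E9.0 and 1102, 737 and 991 CPM at E9.5. At E10.0 it ran from 286 over a median of 475 to 1389 CPM, a range that held all the other stages. The log2 change from E8.5 to E10.0 was 0.19 ± 0.25 with an edgeR adjusted p of 0.695, which does not show that the levels were equal.

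Col15a1, the other multiplexin (chr4:47208161-47313167), went from nearly none to a level present in most cells. It was at 1.03 and 0 CPM in the E8.0 libraries and between 0 and 0.820 CPM, with a median of 0.127, in the E8.5 libraries. The E9.0 libraries had 0.263, 0.281, 11.1, 21.9 and 9.52 CPM, so 2 lay within the E8.5 range and 3 above it. At E9.5 the values were 23.5, 49.4 and 37.2 CPM, and at E10.0 they ran from 29.4 over a median of 55.1 to 245 CPM, with replicate 2 the highest. Every library of E9.5 and E10.0 was above every earlier one.

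From E8.5 to E9.0 Col15a1 rose by 4.41 ± 0.93 on the log2 scale (edgeR adjusted p = 0.0148), a call that held in 3 of 8 alternative settings and was lost with a gate of 5 CPM, a gate of 50 CPM, at least 5 cells, neighbouring batches summed and Cdh5 as the only gate. Over the 8 settings the log2 change went down to 1.96 and the edgeR adjusted p up to 0.907. From E8.5 to E10.0 Col15a1 rose by 7.46 ± 0.99 (edgeR adjusted p = 2.28e-06). No E8.5 library was above 0.820 CPM, so the gene passed the filter on low counts through later stages. Both calls are therefore given as a description, and the fitted folds are no firm measure of size. The share of Cdh5-expressing cells with a count was 5.88% at E8.0, 11% at E8.5, 57.4% at E9.0, 70.9% at E9.5 and 82.5% at E10.0. After each cell was thinned to 100000 counts the shares were 2.94%, 3.66%, 27.9%, 54.5% and 62.5%. Of the blood-marker cells, some of which also held Cdh5, 22% had a Col15a1 count at E8.5 and 67.3% at E9.5. Their median depths were 1074370.5 and 822705 counts per cell, against 598212.5 and 409272 in the Cdh5-expressing cells. Thinned, the blood-marker shares were 2.0% and 10.9%, and the level in blood-marker libraries at E9.5 was 1.92 ± 2.19 CPM (n = 9).

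**Figure D3:**
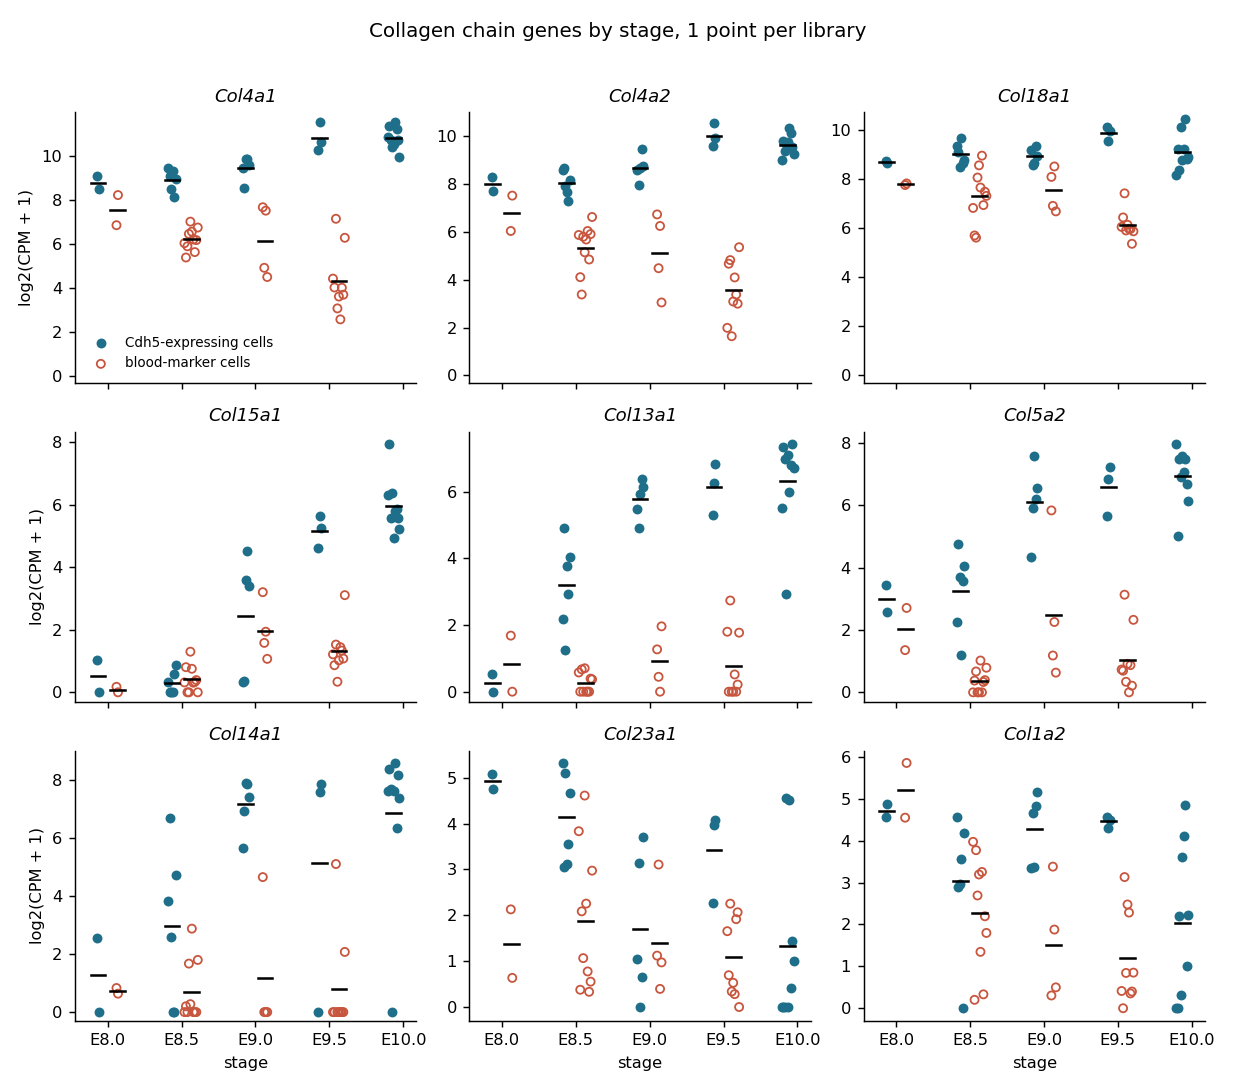
Levels of 9 collagen chain genes by stage. Each point is 1 library, filled for Cdh5-expressing and hollow for blood-marker cells, on a log2(CPM + 1) axis whose range differs between panels, and bars are means of the log2 values. Col15a1, Col13a1, Col5a2 and Col14a1 have most of their filled E9.0 points above those of E8.5, and Col4a1 and Col4a2 are higher at E9.5 and E10.0.

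Col5a2, a chain of the type V collagen that controls the width of collagen fibrils (chr1:45374321-45503282), was at 9.83 and 4.91 CPM in Cdh5-expressing cells at E8.0. It ran from 1.27 over a median of 11.4 to 26.3 CPM at E8.5 and was 19.2, 58.8, 190.4, 72.0 and 93.1 CPM at E9.0. Only E9.0 replicate 5 lay inside the E8.5 range. Values were 49.9, 115 and 148 CPM at E9.5 and ran from 31.3 over a median of 133 to 249 CPM at E10.0, all above E8.5. The gene rose by 2.96 ± 0.55 on the log2 scale from E8.5 to E9.0 (edgeR adjusted p = 0.00522) and by 3.50 ± 0.53 from E8.5 to E10.0 (edgeR adjusted p = 1.76e-05). The E9.0 call held in 6 of 8 settings and was lost with a gate of 5 CPM and with at least 5 cells, with an edgeR adjusted p up to 0.115. Counts of it were present in 35.3%, 53.7%, 95.1%, 89.1% and 82.5% of cells from E8.0 to E10.0, and thinned to 100000 counts in 29.4%, 37.8%, 85.2%, 81.8% and 68.8%.

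Col13a1 (chr10:61838236-61979108) encodes a transmembrane collagen of adhesion sites, known for its part at the neuromuscular junction. It was at 0.440 and 0 CPM at E8.0, where 1 of 34 Cdh5-expressing cells held a count. At E8.5 it ran from 1.38 over a median of 9.69 to 29.3 CPM, and at E9.0 the libraries had 43.4, 29.2, 60, 81.8 and 69.5 CPM. These stages met only at 29.3 and 29.2 CPM. At E9.5 the values were 38.6, 75.6 and 113 CPM, and at E10.0 they ran from 6.55 in replicate 4 over a median of 110.4 to 171 CPM, so that 1 library of 9 lay within the E8.5 range. The rise was 2.37 ± 0.60 on the log2 scale from E8.5 to E9.0 (edgeR adjusted p = 0.0463) and 3.12 ± 0.58 from E8.5 to E10.0 (edgeR adjusted p = 0.000269). The E9.0 call held in 3 of 8 settings, with an edgeR adjusted p up to 0.458. From E8.0 to E8.5 the log2 change was 5.44 ± 1.24 with an edgeR adjusted p of 0.404. The share of cells with a count was 37.8% at E8.5 and 80% at E10.0, and in blood-marker cells it was 18% at E8.5 and 12.7% at E9.5 despite their greater depth.

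Col14a1 (chr15:55307750-55520803) encodes a fibril-associated collagen found at interfaces of tissues under tension. Its libraries spread widely within a stage. It was at 4.84 and 0 CPM at E8.0. At E8.5 the libraries ran from 0 over a median of 9.10 to 102 CPM, the highest being replicate 2. At E9.0 they had 49.2, 122, 236, 234 and 172 CPM and at E9.5 0, 193 and 234 CPM, where the library at 0 held 3 cells. At E10.0 they ran from 0 in replicate 4 over a median of 197 to 383 CPM. Replicate 4 was thus the E10.0 library with the lowest value of both Col13a1 and Col14a1. From E8.5 to E10.0 the gene rose from 24.3 ± 39.3 to 205 ± 119 CPM, by 3.05 ± 0.92 on the log2 scale (edgeR adjusted p = 0.0246). From E8.5 to E9.0 the log2 change was 2.83 ± 0.97 with an edgeR adjusted p of 0.22. The E10.0 call was lost under DESeq2, with a gate of 5 CPM, when neighbouring batches were summed, and without E8.5 replicate 1, 3, 5 or 7, with adjusted p up to 0.0759.

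Col17a1, a hemidesmosome collagen of epithelia (chr19:47646344-47692094), was called with few counts. It had none in any of the 82 Cdh5-expressing cells of E8.5 and was at 2.39 ± 4.23 CPM at E10.0, in 7 cells of 6 of the 9 libraries. Against a floor of 3 counts over the 6 kept libraries of E8.5 (0.0606 CPM), it was at least 39.4-fold higher, and without E10.0 replicate 6 at least 17.6-fold higher. It passed the filter on low counts through the other stages only, so its call (edgeR adjusted p = 0.0296) is a description and supports nothing. It was already at 2.64 and 1.18 CPM in the E8.0 libraries. The call held in 3 of 8 alternative settings and was lost without E8.5 replicate 1, 3 or 10 or E10.0 replicate 6, with adjusted p from 0.0501 to 0.0682.

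Col23a1, a transmembrane collagen known from tumour cells (chr11:51289920-51583918), had lower means at later stages, without a call. It was at 32.7 and 26.1 CPM at E8.0 and ran from 7.32 over a median of 17.6 to 39 CPM at E8.5. The E9.0 libraries had 1.05, 7.86, 0, 0.576 and 12.1 CPM, the E9.5 libraries 3.78, 14.6 and 15.9 CPM, and the E10.0 libraries ran from 0 over a median of 0.324 to 22.7 CPM. The log2 change from E8.5 to E10.0 was -2.06 ± 1.09 with an edgeR adjusted p of 0.234, and E10.0 replicates 4 and 6 were at 22.7 and 21.9 CPM and the other 7 at 1.70 or less. The share of cells with a count was 52.9%, 70.7%, 39.3%, 21.8% and 15% from E8.0 to E10.0, and 44.1%, 46.3%, 18%, 20% and 7.5% when thinned.

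The type I chains, the main fibrillar collagen of connective tissue, were low in the stage series. Col1a2 had means of 25.5 ± 3.91, 10.7 ± 8.17, 21 ± 11.3, 21.1 ± 1.98 and 7.08 ± 9.60 CPM in Cdh5-expressing cells from E8.0 to E10.0, and its log2 change from E8.5 to E10.0 was -0.64 ± 0.90, not called. Col1a1 was at 0 CPM in both E8.0 libraries and at 8.77 ± 14.6 CPM at E10.0, where replicate 6 had 44.5 CPM. Col3a1 had 9.45 ± 10.1 CPM at E10.0, and at E9.5 its mean of 17.9 CPM came from replicate 6, a library of 3 cells, with 53.7 CPM. The summed level of the 11 mesenchyme genes was 131, 142 and 339.7 CPM in the E9.5 libraries, with Pdgfrb, Dcn and Tcf21 at 0, and its part was not tested. Col5a1, the partner chain of Col5a2, was at 8.15 ± 10.9 CPM in the E8.5 libraries and 16.9 ± 25.4 in those of E10.0 and was not called, and Col27a1, a fibrillar chain of cartilage, was highest at E8.0 with 6.02 and 16.3 CPM.

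In blood-marker cells, 2 chains of basement membranes fell between E8.5 and E9.5. From E8.5 to E9.5 Col18a1 and Col4a2 fell and Col10a1 and Col4a4 were called higher from a stage with no count, 4 of the 18 collagen genes tested, where 11.1% of 12624 genes were called, 6.65% higher and 4.49% lower. The blood cells themselves differed: 50% of the E8.5 cells and 12.7% of the E9.5 cells had at least 2 of 3 erythroid genes, and 36% and 92.7% had at least 2 of 3 megakaryocyte genes. The 10 pan-endothelial genes summed to 299 to 1179.6 CPM in the E8.5 libraries and 431 to 798 CPM in those of E9.5, which lay within that range. At E8.5, 103 cells had Cdh5 at 20 CPM or more. Of these, 82 were of the Cdh5-expressing class and the rest were among the 50 blood-marker cells. At E9.5 there were 63 such cells, with 55 of the Cdh5-expressing class and the rest among the 55 blood-marker cells. The part of any of these differences in the collagen result was not tested. When neighbouring batches were summed, none of the 4 was called, with 3 summed samples at each stage.

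Col18a1 in blood-marker cells ran from 47.5 over a median of 166 to 489 CPM in the 10 libraries at E8.5. At E9.5 it ran from 39.8 over a median of 61.3 to 168 CPM in 9 libraries. The ranges overlapped, and the log2 change was -1.44 ± 0.33 with an edgeR adjusted p of 0.00517. The Col18a1 call held in 4 of 7 settings and was lost with a gate of 5 CPM, with a gate of 50 CPM and with batches summed. Col4a2 ran from 9.44 over a median of 52.5 to 97.8 CPM at E8.5 and from 2.12 over a median of 9.42 to 40.1 CPM at E9.5, a log2 change of -1.63 ± 0.51 with an edgeR adjusted p of 0.0383. The Col4a2 call was lost in 12 of 19 leave-outs, without E9.5 replicate 1, 4, 5, 6, 7 or 8 or E8.5 replicate 1, 4, 6, 7, 9 or 10, with adjusted p up to 0.0760. Col4a1 had a mean of 77.0 ± 26.9 CPM at E8.5 and 33.7 ± 45.5 at E9.5, and its log2 change of -1.20 ± 0.50 was not called (edgeR adjusted p = 0.123). At E9.5, replicates 3 and 9 were at 140.3 and 76.7 CPM of Col4a1 and the other 7 at 20.5 CPM or less.

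Col10a1, a collagen of growth plate cartilage, and Col4a4, a chain of the kidney filter, each had no count in any of the 50 blood-marker cells of E8.5. At E9.5 Col10a1 was at 0.840 ± 1.41 CPM and Col4a4 at 1.49 ± 2.59 CPM, each in 4 cells of 3 of the 9 libraries. Against a floor of 3 counts over the 10 libraries of E8.5 (0.0569 CPM), they were at least 14.8-fold and at least 26.2-fold higher, with edgeR adjusted p of 0.0311 and 0.0366. Without E9.5 replicate 4 the bound for Col10a1 was 8.47-fold, and without E9.5 replicate 3 that for Col4a4 was 13.4-fold. Neither gene had a count at E8.5 to pass the filter on low counts, so these calls are a description and support nothing. The Col4a4 call was lost without E9.5 replicate 1, 3 or 4 or E8.5 replicate 1, 2, 8 or 10, with adjusted p up to 0.0621. Col10a1 had no test without E9.5 replicate 2 or 4. At E9.0 the 4 libraries gave 1 call of 18, Col5a2, against E8.5, where 5.15% of all genes were called, 3.03% higher and 2.12% lower. The Col5a2 libraries at E9.0 were at 56.1, 1.27, 3.78 and 0.550 CPM, and the 10 at E8.5 were at 1.03 CPM or less. The log2 change was 5.30 ± 1.2 (edgeR adjusted p = 0.00954), and 0.404 was the adjusted p without E9.0 replicate 1, where 1 cell held 95.4% of the Col5a2 CPM summed over the blood-marker cells of that stage. Being so low at E8.5, Col5a2 passed the filter on low counts through other stages, so this call too is a description.

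Within libraries that held both classes, the basement membrane chains were higher in Cdh5-expressing cells. In 10 libraries with at least 3 cells of each class, edgeR with the library as a block called Col4a1, Col4a2, Col18a1, Col5a2 and Col23a1 higher in Cdh5-expressing cells and none lower, 5 of the 7 collagen genes tested. The background was 19.1% of 9410 genes called, 11.5% higher and 7.66% lower, with the 10 genes of the gate left out where tested. These libraries came from E8.0, E8.5 and E9.5 only. The classes are split by blood genes, and a blood-marker cell could also hold Cdh5.

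Col4a1 was at 539 CPM in Cdh5-expressing and 114 CPM in blood-marker cells of E8.0 replicate 1, and at 359.9 and 297 CPM in E8.0 replicate 2. In the 6 libraries of E8.5 it was between 276 and 692 CPM in Cdh5-expressing cells and between 40.7 and 128 CPM in blood-marker cells. In E9.5 replicates 6 and 9 it was at 1238 and 2937 CPM against 4.95 and 76.7 CPM. The difference pointed the same way in 10 of 10 libraries and was widest at E9.5. Over all 10 libraries the log2 fold was 2.91 ± 0.50 (edgeR adjusted p = 0.000838). Col4a2 was also higher in 10 of 10, with 2.94 ± 0.49 (edgeR adjusted p = 0.00065).

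Col18a1 was higher in 9 of 10 libraries, with a log2 fold of 1.98 ± 0.37 (edgeR adjusted p = 0.0014), the exception being E8.5 replicate 7 at 402 CPM in Cdh5-expressing and 489 CPM in blood-marker cells. Col5a2 was higher in 9 of 10, with 4.70 ± 0.90 (edgeR adjusted p = 0.00177), and E8.0 replicate 2 was the exception at 4.91 and 5.53 CPM. Col23a1 was higher in 9 of 10, with 3.12 ± 0.76 (edgeR adjusted p = 0.00871), and E8.5 replicate 5 was the exception at 7.63 and 23.4 CPM. Col1a2 and Col5a1 had log2 folds of 0.84 ± 0.84 and -0.85 ± 1.18 and were not called. The Col23a1 call was lost without the library block and with a gate of 5 CPM, and the Col5a2 call when 5 cells of each class were required, with edgeR adjusted p of 0.0721, 0.0552 and 0.0571.

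**Figure D4:**
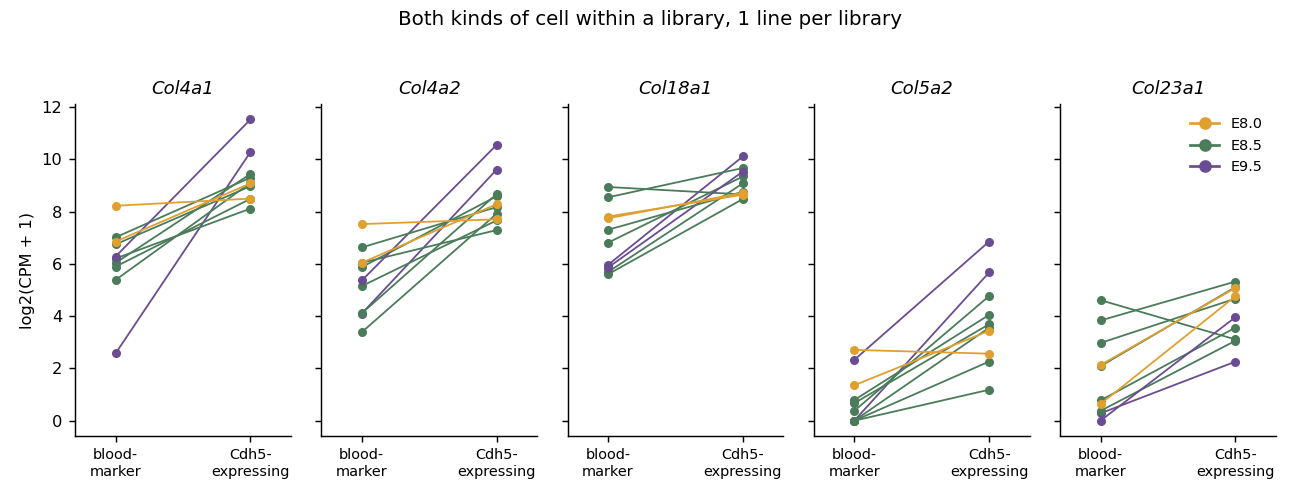
Levels in blood-marker and Cdh5-expressing cells of the same library for the 5 collagen chain genes called. Each line is 1 of 10 libraries, coloured by stage, on a log2(CPM + 1) axis. Every line rises for Col4a1 and Col4a2, and 1 line of 10 falls for each of Col18a1, Col5a2 and Col23a1.

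Genes that make, surround, bind or cut collagens were taken as lists, and their counts are read beside the background of 5.96% of all tested genes called higher and 6.62% lower from E8.5 to E10.0. Of 24 tested genes for collagen modification and secretion, 2 rose and 3 fell in Cdh5-expressing cells from E8.5 to E10.0, with a median log2 change of 0.28 against 0.09 over all genes tested. Plod1, a lysyl hydroxylase, rose by 1.17 ± 0.32 (edgeR adjusted p = 0.0122) and Crtap, part of the prolyl 3-hydroxylation complex, by 1.01 ± 0.32. P3h3, a member of the prolyl 3-hydroxylase family, changed by -2.59 ± 0.88 and Loxl2, a lysyl oxidase, by -1.04 ± 0.35, and Adamts3, a procollagen peptidase, fell from 2.02 ± 2.56 CPM to 0 in all 9 libraries.

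Of 16 tested basement membrane partners 4 rose and none fell over the same span, with a median log2 change of 0.94. The 3 largest were Mmrn2 (1.6 ± 0.30), an endothelial matrix protein, Nid1 (1.11 ± 0.29), the nidogen that links laminin to type IV collagen, and Sparc (1.07 ± 0.17), a collagen-binding protein. Among 8 tested receptors 4 rose and 1 fell, with a median of 0.92. The collagen-binding integrin chains Itga2 and Itga1 changed by 4.51 ± 1.08 and 1.21 ± 0.41, Cd44 by 2.26 ± 0.46 and Itgb3 by -3.0 ± 0.83. Among 10 tested proteases and inhibitors, Timp3 rose by 1.77 ± 0.34 and the membrane collagenase Mmp14 by 1.44 ± 0.26, none fell, and the median was 0.76. From E8.5 to E9.0 Mmp14 was the only gene called in the 4 lists, with 1.26 ± 0.29 (edgeR adjusted p = 0.0229).

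Within libraries, 7 of 15 tested modification genes, 10 of 14 partners, 3 of 5 receptors and 7 of 7 proteases and inhibitors were higher in Cdh5-expressing cells, and Itgb3 was lower, where 11.5% of all tested genes were higher and 7.66% lower. The largest log2 folds in each list were 5.11 for Pcolce, an enhancer of procollagen cleavage, 5.09 for the nidogen Nid2, 4.74 for Itga1 and 4.85 for Mmp14. In blood-marker cells from E8.5 to E9.5, 1 of 23 tested modification genes rose and 3 fell, 1 of 16 partners rose and 3 fell, 2 of 10 receptors rose and 1 fell, and 1 of 8 proteases and inhibitors rose and 1 fell, where 6.65% of all tested genes were called higher and 4.49% lower. Gp6, the platelet collagen receptor, went from 0.0514 ± 0.163 to 30.8 ± 24.1 CPM (edgeR adjusted p = 2.91e-06) and Itgb3, part of the platelet fibrinogen receptor, from 160 ± 80.8 to 745 ± 304 CPM (edgeR adjusted p = 0.000868). Over the same span the fibronectin gene Fn1 fell by 2.70 ± 0.49 on the log2 scale, Sparc by 2.24 ± 0.56 and Agrn, which encodes agrin, by 1.68 ± 0.49, while Mmrn1, a platelet multimerin, rose by 2.34 ± 0.69.

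The sorted samples had 1 library each, so no test was made. Levels are of counts summed over the cells of a sample, with 95% exact Poisson intervals. The intervals cover counting error at most, and not all of it if the counts are reads and not collapsed molecules, which is not known. They do not cover the spread between cells. A gene counts as different when it differs at least 2-fold and reaches 10 CPM in the higher sample. Between the yolk sac samples, the basement membrane genes Col4a1, Col4a2 and Col18a1 were higher in Gja5+Cd44+ YS cells, and 8 genes, with type I and III chains among them, were higher in Gja5-Cd44+ YS cells. These were 11 of the 17 collagen genes at 10 CPM, where 37.2% of 9396 genes differed by this rule, 19.7% higher in Gja5+Cd44+ YS and 17.6% higher in Gja5-Cd44+ YS. The samples differed in their cells: 40 of 50 Gja5+Cd44+ YS cells and 19 of 36 Gja5-Cd44+ YS cells were Cdh5-expressing, and 10 and 16 were blood-marker cells. By fold of Gja5-Cd44+ YS over Gja5+Cd44+ YS, Col1a1 was 3.96-fold, Col1a2 4.12-fold, Col3a1 2.65-fold, Col11a1 14.3-fold, Col14a1 3.85-fold and Col16a1 2.89-fold higher, and Col2a1 and Col6a1 were at 0 in the latter. Median depth was 178190.5 and 174632 counts per cell. The 10 pan-endothelial genes summed to 5884 CPM in Gja5+Cd44+ YS, 2316 in Gja5-Cd44+ YS and 4570.4 in Gja5+Cd44+ CR cells, and the 11 mesenchyme genes to 280.3, 372 and 280.5 CPM, with 10, 10 and 5 of them detected. Pdgfrb, Dcn, Lum, Postn, Thy1 and Tcf21 were at 0 in the CR cells. In the order Gja5+Cd44+ YS, Gja5-Cd44+ YS and Gja5+Cd44+ CR, 8 erythroid genes summed to 23171, 11724 and 133 CPM, with Gata1 and Klf1 at 0 in CR cells. Myeloid genes summed to 36.9, 407 and 244 CPM, with 5, 7 and 6 of 8 detected, and megakaryocyte genes to 59.9, 107 and 37 CPM, with 4, 7 and 5 of 8. The part of these in the collagen levels was not tested. Gja5, which the sort used, had a median of 1241 CPM in Gja5+Cd44+ YS, 658 in Gja5+Cd44+ CR and 0 in Gja5-Cd44+ YS cells, leaving out the 2 cells of each sample with the most Col1a1.

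Col4a1 was at 2149.7 CPM (2123 to 2177) in Gja5+Cd44+ YS, 831 CPM (811 to 851) in Gja5-Cd44+ YS and 1112 CPM (1090.4 to 1134) in Gja5+Cd44+ CR cells. Col4a2 was at 1147 (1128 to 1167), 345 (332 to 358) and 756 CPM (738 to 774) in the same order. Col18a1 was at 1411 (1389 to 1433), 246 (236 to 257) and 1184 CPM (1162 to 1206). The Gja5+Cd44+ YS cells were thus 2.59-fold, 3.33-fold and 5.73-fold above the Gja5-Cd44+ YS cells. In Cdh5-expressing cells alone the folds were 1.96, 2.57 and 4.38, so Col4a1 no longer met the rule. Against the CR cells the folds were 1.93, 1.52 and 1.19 and did not meet it.

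Most counts of Col1a1, Col1a2 and Col3a1 in the yolk sac samples came from 3 cells. Col1a1 was at 533 CPM (518 to 549) in Gja5-Cd44+ YS, 135 (128 to 141) in Gja5+Cd44+ YS and 1.2 CPM (0.598 to 2.14) in Gja5+Cd44+ CR cells. The 2 Gja5-Cd44+ YS cells with the most Col1a1 had 9157 and 7623 CPM and held 95.9% of its counts in that sample, and 1 Gja5+Cd44+ YS cell had 4345 CPM. These cells had Cdh5 at 31.5, 40.7 and 64.7 CPM and the mesenchymal gene Postn at 548, 355 and 824 CPM. Pdgfrb, a mural and mesenchymal cell receptor, was at 637, 198 and 58.8 CPM in them and had a median of 0 in the other cells of both samples. Pdgfra, another receptor of mesenchymal cells, was at 0, 19 and 209 CPM, and the mesenchymal transcription factor genes Twist1 and Prrx1 were at 0 in all 3 cells. Other cells reached 223 CPM of Twist1 in Gja5-Cd44+ YS and 224 CPM in Gja5+Cd44+ YS. No stage cell reached 1000 CPM of Col1a1. Doublets were not called.

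Without those 3 cells, Col1a1 was at 23.4 CPM (20.1 to 27.1) in Gja5-Cd44+ YS and 6.28 (4.89 to 7.93) in Gja5+Cd44+ YS, Col1a2 at 35.3 (31.3 to 39.7) and 14.4 (12.3 to 16.8), and Col3a1 at 16.8 (14 to 19.9) and 3.77 CPM (2.71 to 5.09). What was left was spread thinly: Col1a1 had a count in 29 of 34 Gja5-Cd44+ YS cells with a median of 16.2 CPM. It had a count in 15 of 16 blood-marker cells of that sample, at 32.8 CPM (27.1 to 39.4) and a median depth of 129055.5 counts against 199547 in its Cdh5-expressing cells, where 15 of 19 held a count. The 34 cells include those 16. The 19 cells and their median depth still include the 2 Col1a1-high cells, which the 34 do not. Col2a1, a cartilage collagen, was at 39.1 CPM (34.9 to 43.5) in Gja5-Cd44+ YS cells and at 0 in the others, which is at least 149.7-fold higher than in Gja5+Cd44+ YS cells by a floor of 3 counts. Without the 2 cells it was at 3.58 CPM (2.38 to 5.18). Col11a1 went from 85.6 (79.4 to 92.1) to 4.73 CPM (3.33 to 6.52) in Gja5-Cd44+ YS cells, and Col6a1 from 11 (8.89 to 13.5) to 0.768 CPM (0.282 to 1.67). Col5a1 went from 66.9 (61.4 to 72.7) to 19.3 CPM (16.4 to 22.7), and Col6a3 from 21.8 (18.8 to 25.2) to 2.30 CPM (1.36 to 3.64). Col16a1 was at 118 CPM in the Gja5+Cd44+ YS cell left out and at 315 and 0 CPM in the Gja5-Cd44+ YS cells left out. Without them it no longer reached 10 CPM in either sample. Without the 3 cells 8 of 13 genes met the rule between the yolk sac samples, 4 in each direction.

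Col14a1 kept its level in Gja5-Cd44+ YS cells without those cells, and in Gja5+Cd44+ YS cells it did not. It was at 219 CPM (209 to 229) in Gja5-Cd44+ YS, 56.8 (52.5 to 61.3) in Gja5+Cd44+ YS and 1.09 CPM (0.522 to 2.0) in Gja5+Cd44+ CR cells, and at 224 (214 to 235) and 22.2 CPM (19.6 to 25.2) in the yolk sac samples without the 3 cells. It had a count in 27 of 36, 16 of 50 and 2 of 44 cells. In the yolk sac samples 11 of 16 and 3 of 10 blood-marker cells also held a count, so the share is not read as the share of cells that use the gene. Cells at 100 CPM or more numbered 10 of 36, 3 of 50 and 0 of 44.

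Between the Gja5+Cd44+ samples, all 8 collagen genes that met the rule were higher in YS cells and none in CR cells, of 15 at 10 CPM. The background was 29.9% of 9391 genes, 14.3% higher in YS and 15.6% higher in CR. The blood, endothelial and mesenchyme lists given above also differed between these samples, the erythroid genes from 23171 to 133 CPM, and their part was not tested. Col13a1, the transmembrane collagen, differed with or without the Col1a1-high cell. It was at 61.0 CPM (56.6 to 65.7) in Gja5+Cd44+ YS and 51.3 CPM (46.5 to 56.4) in Gja5-Cd44+ YS cells, and at 0.109 CPM (0.00276 to 0.607), from 1 count, in Gja5+Cd44+ CR cells. It had a count in 34 of 50 (68.0%), 27 of 36 (75%) and 1 of 44 cells (2.27%), with exact binomial 95% intervals of 53.3 to 80.5%, 57.8 to 87.9% and 0.0575 to 12%. In the yolk sac samples 6 of 10 (26.2 to 87.8%) and 11 of 16 blood-marker cells (41.3 to 89.0%) held a count, against 28 of 40 (53.5 to 83.4%) and 15 of 19 Cdh5-expressing cells (54.4 to 93.9%). These intervals overlap, the blood-marker cells being at median depths of 165686 and 129055.5 counts, so within these samples the share with a count is not read as the share of cells that use the gene. Cells at 100 CPM or more numbered 9 of 50, 6 of 36 and 0 of 44.

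Col15a1 was at 76.1 CPM (71.2 to 81.4) in Gja5+Cd44+ YS, 74.8 (69.0 to 80.9) in Gja5-Cd44+ YS and 13.9 CPM (11.6 to 16.6) in Gja5+Cd44+ CR cells, 5.46-fold apart between the Gja5+Cd44+ samples. Col5a2 was at 217 (209 to 226), 136 (128 to 144) and 169 CPM (161 to 178) and met the rule in neither comparison. Col1a1, Col1a2, Col3a1, Col5a1, Col6a3 and Col14a1 made up the rest of the 8, and without the Col1a1-high cell 5 of 12 genes met the rule, 4 higher in YS and 1, Col27a1, higher in CR, where it was 8.07-fold above the 1.26 CPM of Gja5+Cd44+ YS cells. The YS cell left out had 250 CPM of Col27a1, and with all cells the gene did not meet the rule. Only 9 of 44 CR cells held a Col27a1 count, the highest at 608 and 528 CPM. Col23a1 was at 9.83 (8.10 to 11.8), 6.11 (4.55 to 8.04) and 17.1 CPM (14.5 to 20), with a count in 4 of 50, 2 of 36 and 16 of 44 cells. A single cell had 206 CPM of Col23a1 in Gja5+Cd44+ YS and a single cell 99.0 CPM in Gja5-Cd44+ YS. Every other cell of these samples was at 9.97 CPM or less. Col4a5 was at 18.6 (16.2 to 21.3), 14.1 (11.7 to 16.9) and 11.5 CPM (9.45 to 14). Col27a1 was at 8.61 (7.0 to 10.5), 4.67 (3.32 to 6.39) and 10.1 CPM (8.17 to 12.4), and Col16a1, a fibril-associated chain, at 3.57 (2.56 to 4.84) and 10.3 (8.24 to 12.7) in the yolk sac samples and at 0 in CR cells. All 3 samples are single libraries, and sample and library cannot be told apart.

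**Figure D5:**
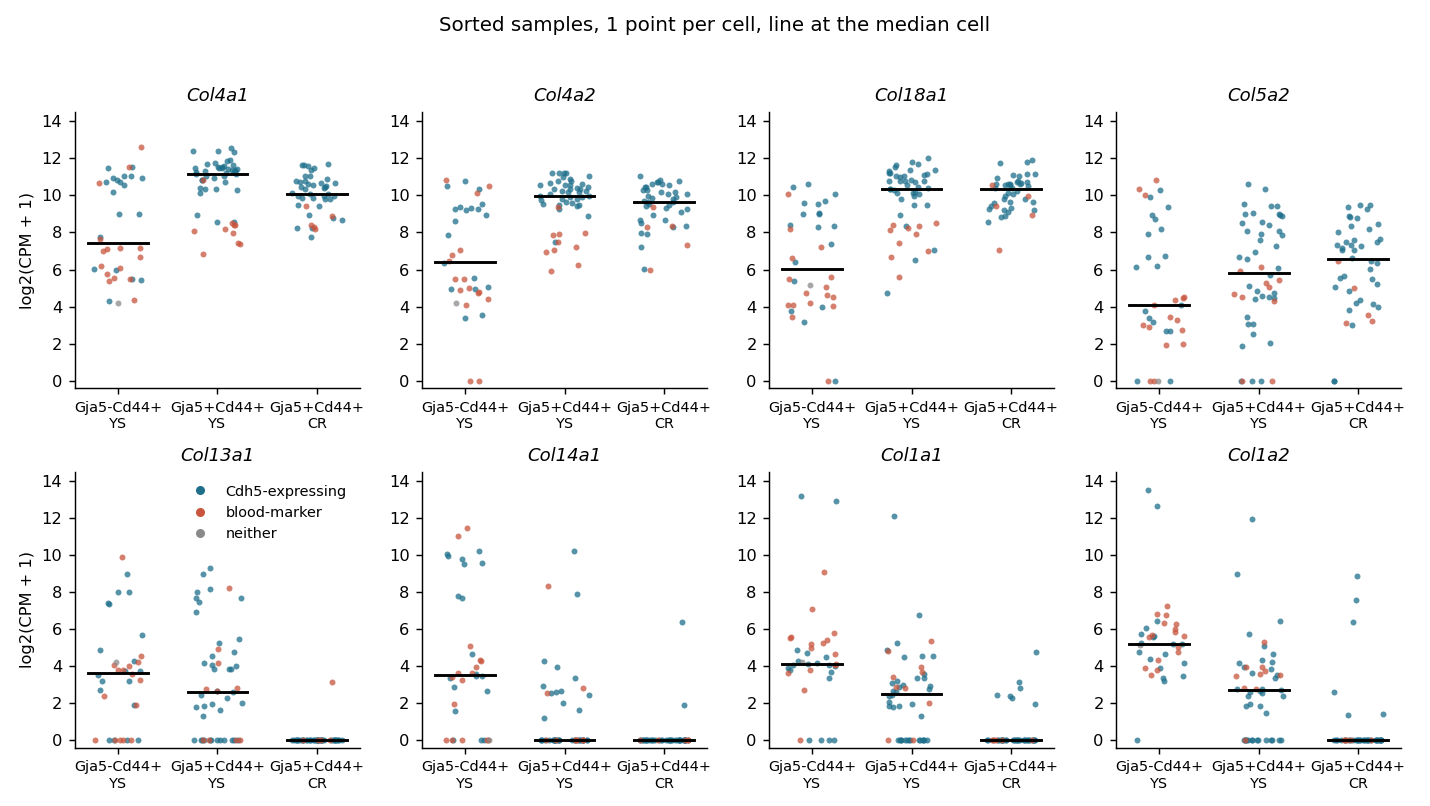
Levels of 8 collagen chain genes in the cells of the 3 sorted samples. Each point is 1 cell, coloured by class, on a log2(CPM + 1) axis, and the line is the median cell. Col13a1 is at 0 in 43 of 44 Gja5+Cd44+ CR cells, and 3 cells stand far above the rest for Col1a1.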

How the data were processed

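Single-cell STRT libraries of mouse yolk sac were analysed, 40 by stage and 3 sorted. The authors deposited counts per gene symbol and cell. The build was mm10, per the submitters' processing notes, and the aligner and any collapsing of molecular identifiers were not given in the sources used here. Values are therefore called counts. From these, 92 spike-in rows were removed, cells were classed by marker genes, and counts were summed per library and class (at least 3 cells). Sums were tested with edgeR 4.0.16 (quasi-likelihood, TMM, filterByExpr, Benjamini-Hochberg) in R 4.3.3, with DESeq2 1.42.0 as an alternative. The edgeR test was also run on simulated counts, for E10.0 against E8.5 in Cdh5-expressing cells only. Standard errors are the log2 fold change over the square root of F. Python 3.11.15, numpy 2.4.6, pandas 2.3.3 and scipy 1.17.1 made sums, shares and intervals.

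All cells in the tables were used, doublets were not called, 87 of 93 cell numbers recur in more than 1 library, and 0 columns were identical. A collagen gene was named when called in a comparison, or at 10 CPM in a stage of either class or in a sorted sample. For the lists around collagens, at most the 3 largest changes per direction were named. The collagen genes, lists and tests were chosen with earlier results of these data known. Promoter windows and coordinates are from RefSeq (GRCm38.p6) and GENCODE M21.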

Additional observations from a re-analysis of the deposited data

Results flagged for a closer look

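Of 33 groups of 4 to 10 libraries examined for a library far from the others, 7 had one. The rule is set to flag about 1 in 20 groups of normally distributed values. CPM of sparse genes are skewed and often 0, so that rate does not hold here and the 7 are not read against it. In Cdh5-expressing cells, E8.5 replicate 2 had 102 CPM of Col14a1 and the next library 25.3 CPM. E10.0 replicate 2 had 245 CPM of Col15a1 and the next 82.3 CPM. For Col17a1, E9.0 replicate 6 had 2.81 CPM against 0.0989 CPM in the next, and E10.0 replicate 6 had 13 CPM against 4.21 CPM. In blood-marker cells, E9.0 replicate 2 had 4.71 CPM of Col4a4 and the other libraries 0. E9.0 replicate 1 had 56.1 CPM of Col5a2 and the next 3.78 CPM. E9.5 replicate 3 had 168 CPM of Col18a1 and the next 84.8 CPM.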

How the results depend on the processing

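Counts are of collagen genes called, and all alternatives changed 1 choice at a time. Of 422 single-gene values under alternatives, 350 kept their direction and side of the threshold, 72 kept the direction only and 0 reversed. In Cdh5-expressing cells from E8.5 to E10.0 the count was 6 to 9 under other settings and 5 to 8 with 1 library left out, and Col4a1, Col4a2, Col5a2, Col13a1 and Col15a1 were called in 8 of 8 settings and 15 of 15 leave-outs. For Col15a1, nearly absent at E8.5, this is a description only. From E8.5 to E9.0 the count was 0 with a gate of 5 CPM, 1 with a gate of 50 CPM, 0 with at least 5 cells, 1 with neighbouring batches summed and 1 with Cdh5 as the only gate, and 0 to 3 with 1 library left out. From E8.0 to E8.5 it was 1 under DESeq2, and 0 with any library left out. From E9.0 to E9.5 it was 2 under DESeq2 and 1 without the filter on low counts, and 0 with any library left out. From E9.5 to E10.0 it was 0 throughout. In blood-marker cells from E8.5 to E9.0 it was 0 with a gate of 5 CPM, with at least 5 cells and with batches summed, and 0 to 1 with 1 library left out. From E8.5 to E9.5 it was 2 under DESeq2, 2 with a gate of 50 CPM, 0 with batches summed and 6 without the filter on low counts, and 1 to 6 with 1 library left out. Col18a1 was called in 19 of 19 leave-outs and in 4 of 7 settings, being lost with a gate of 5 CPM (edgeR adjusted p = 0.0510), a gate of 50 CPM (log2 -0.86, edgeR adjusted p = 0.111) and batches summed (edgeR adjusted p = 0.269), and Col4a2 in 7 leave-outs and 4 settings. In the sorted Gja5+Cd44+ samples 5 genes met the rule without the Col1a1-high cell and 2 by the median cell. The cause was not tested.

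Between Cdh5-expressing and blood-marker cells the count was 8 without the filter, 5 to 5 with 1 library left out, and 4 with no replicate block, where Col23a1 was lost (log2 1.95, edgeR adjusted p = 0.0721). For the stage comparisons, no paired analysis was possible because replicate numbers were given in accession order and pair nothing across stages. Leaving out the Col1a1-high cells and taking Cdh5-expressing sorted cells alone were chosen after seeing the data. Having 1 library each limits the sorted samples to counting intervals, and E8.0 and E9.5 hold 2 and 3 libraries of Cdh5-expressing cells.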
